A study of Mus musculus with 24 samples.

Results

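Mitochondrial ribosomal protein genes are nuclear genes for the protein subunits of the ribosome inside mitochondria. They were taken from the annotation table of the array as every probe whose symbol begins with Mrpl or Mrps followed by a number. This rule found 52 genes, each on 1 probe, among 8726 named genes on 10080 probes. Of the 52, 34 carried an Mrpl name and 18 an Mrps name. Mrpl stands for the large and Mrps for the small subunit, although Mrps18a is now placed in the large subunit and Mrps36 outside the ribosome.

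The arrays compared liver RNA of mice injected with tumor cells against that of mice injected with phosphate-buffered saline (PBS). The male C57Bl/6 mice were 8 weeks old and received 1e+06 LL/2(LLC1) cells in 300 µl of PBS under the skin, or 300 µl of PBS alone. The injected cells form Lewis lung carcinomas in this strain, and the livers were taken at 18, 72 or 192 h. Each time had 4 biological pairs, each of liver RNA from both treatments, and each pair was hybridised on a pair of two-colour arrays with the dyes exchanged, which gives 12 pairs on 24 arrays. No transgene or deletion was involved, all mice received the same volume of PBS, and the labels do not say whether an RNA came from 1 animal or from a pool. The p-values therefore measure only the spread between these pairs.

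The mitochondrial ribosome makes a small set of membrane proteins of the respiratory chain that are encoded in mitochondrial DNA. Its RNA comes from that DNA, while its proteins are made in the cytosol and imported. Many subunits descend from bacterial ribosomal proteins, and others have no bacterial counterpart and were added in the mitochondrial lineage. Liver cells are rich in mitochondria and depend on this ribosome for oxidative phosphorylation.

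Each value below is a log2 ratio of the tumor liver over the PBS liver from the authors' deposited value table, averaged over both dye orientations of a pair. A value above 0 means more signal from the tumor liver. The table does not state its direction or its log base. Its ratios correlated with ratios computed from the scans, turned to tumor over PBS, at 0.506 to 0.842 per array, with the first scan channel read as Cy3. If that reading is wrong, every sign below turns. The standard deviation of the table's ratios was 0.297 to 0.648 of that of the scan ratios, so the table's differences are smaller than those of the scans.

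Coverage limited what could be read. A probe was tested when at least 3 of the 4 pairs at each time had a value in both orientations, and 19 of the 52 members met this, 14 named Mrpl and 5 named Mrps. That is 36.5% of the members, beside 13.5% of all 10080 probes. At 18 h, 38 members had 3 or more pairs, at 72 h 40, and at 192 h 22, and 13 of the 33 untested members fell short at 192 h alone. Mrpl2, Mrpl4, Mrpl12, Mrpl17, Mrpl23 and Mrpl52 were measured in all 12 pairs. Mrpl13, Mrpl44, Mrpl45 and Mrps14 had no pair. Mrpl13, Mrpl44 and Mrps14 lie in the last of the 12 rows of printed blocks, where 514 of 840 spots had no pair, against 738 of 9240 spots in the other rows. The total intensity over background had a median of 3.21 for the tested members, 2.03 for the untested members and 2.95 for all tested probes.

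**Figure D1:**
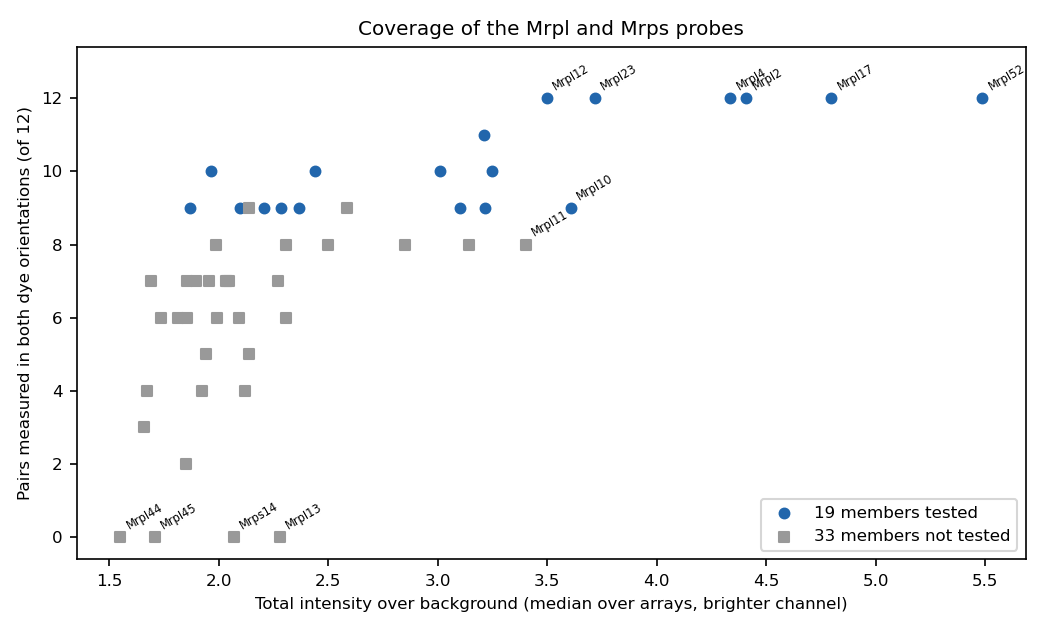
Number of pairs measured in both dye orientations (vertical axis, of 12) against the total intensity over background of the probe (horizontal axis, median over arrays in the brighter channel), with 1 point per member. The 6 members with 12 pairs lie at 3.5 or higher, and the 4 members with no pair lie between 1.55 and 2.28.

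The pairs themselves differed in depth. Spots measured in both orientations numbered 949 in pair 2 at 18 h, 850 in pair 3 at 72 h and 1237 in pair 1 at 192 h. The other 9 pairs had 2752 to 6807 of them. Over those spots, the dye-swapped arrays of a pair correlated at -0.42 to 0.25, except in pair 1 at 192 h, where the correlation was 0.63. Apart from that pair, the correlation was above 0 only in pair 1 at 18 h (0.25) and pair 4 at 72 h (0.03). Arrays of the same orientation correlated at a median of 0.23 with the tumor RNA in Cy5 and 0.29 with it in Cy3. The pair values below thus often average arrays that disagreed, and the part of the dye in this was not tested. Among hepatocyte markers on the array, Fabp1 had a total intensity of 15.6 times background, Tdo2 10.7 times and Hnf4a 4.27 times. The 4 lymphocyte markers and the 4 stellate cell markers on the array lay between 1.66 and 1.88 times background. Of the other cell type markers that could be tested, Cd68, C1qb, Clec4f and Marco of macrophages, Eng of endothelium, Sox9 of cholangiocytes and S100a8 of neutrophils, the single one with an unadjusted p under 0.05 was Marco at 72 h. Its log2 ratio there was 0.41 (n = 3 pairs; exact sign-flip permutation p = 0.50, limma adjusted p = 0.935). At 72 h, 5.21% of all tested probes had such an unadjusted p. Whether a change in cell types has a part in the values below was not tested, and in bulk liver RNA fewer cells of a type and less RNA per cell cannot be told apart.

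At 18 h after injection the mitochondrial ribosomal protein genes as a list lay near 0. Their median log2 ratio was 0.00068 (-0.04 without pair 3, 0.05 without pair 1 and -0.09 with normexp on the scans), with a range of -0.09 to 0.20, beside a median of -0.01 over all 1362 tested probes. Of the 19 tested members, 10 had a ratio above 0 and 9 below, where 42.8% of all tested probes lay above 0. No probe passed limma's test with Benjamini-Hochberg adjustment at 0.05 (0% of 1362), members included, and the smallest adjusted p among members was 0.626. At an unadjusted p under 0.05 there was 1 member, Mrps21, beside 97 of all probes (7.12%).

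The 6 highest ratios at 18 h were those of Mrps21 (0.20), Mrpl23 (0.14), Mrpl2 (0.13), Mrps18c (0.12), Mrpl12 (0.08) and Mrpl52 (0.07). The 6 lowest were those of Mrps7 (-0.09), Mrps33 (-0.08), Mrpl10 (-0.06), Mrpl19 (-0.03), Mrpl50 (-0.03) and Mrpl53 (-0.02). Mrps18c and Mrps21 were above 0 in every measured pair, a pattern held by 10.4% of all tested probes. Mrps33 was below 0 in every measured pair, as were 17.4% of all tested probes. With 2 of 19 above and 1 of 19 below, these shares of the members were near or under those of all probes.

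At 72 h the list again lay near 0, with a median of -0.02 and a range of -0.10 to 0.14, beside a median of -0.01 over all tested probes. Of the 19 members, 9 lay above 0, where 41.9% of all probes did. No probe passed (0%), and 0 members had an unadjusted p under 0.05, beside 71 probes or 5.21%. The highest ratios were those of Mrps21 (0.14), Mrpl52 (0.09), Mrpl23 (0.08), Mrps18c (0.06), Mrpl2 (0.06) and Mrpl17 (0.03). The lowest were those of Mrpl48 (-0.10), Mrps7 (-0.08), Mrpl46 (-0.08), Mrpl53 (-0.07), Mrpl12 (-0.05) and Mrpl19 (-0.04). Mrpl19, Mrpl48 and Mrps7 were below 0 in every measured pair and no member was above 0 in every pair, beside 16.6% and 6.68% of all tested probes.

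At 192 h the median of the list was 0.01, with a range of -0.13 to 0.09, beside -0.01 over all tested probes. This median rests on pair 1, whose measured members had a median of 0.14. Without pair 1 the median of the 19 fitted ratios was -0.09. With all pairs, 11 of 19 members lay above 0, where 45.3% of all probes did. Again no probe passed (0%), and 0 members beside 50 probes (3.67%) had an unadjusted p under 0.05.

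The highest ratios at 192 h were those of Mrpl52 (0.09), Mrpl50 (0.07), Mrpl17 (0.07), Mrpl23 (0.05), Mrpl10 (0.04) and Mrps21 (0.02). Mrpl48 (-0.13), Mrps33 (-0.13), Mrps18c (-0.12), Mrpl46 (-0.11), Mrpl12 (-0.05) and Mrpl53 (-0.05) had the lowest. Mrpl10 was above 0 in every measured pair, beside 5.51% of all tested probes, and Mrpl46, Mrps18c and Mrps33 were below 0 in every measured pair, beside 8.15%. None of these 3 had a value in pair 1. The limma adjusted p was 0.997 for the 4 lowest members.

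**Figure D2:**
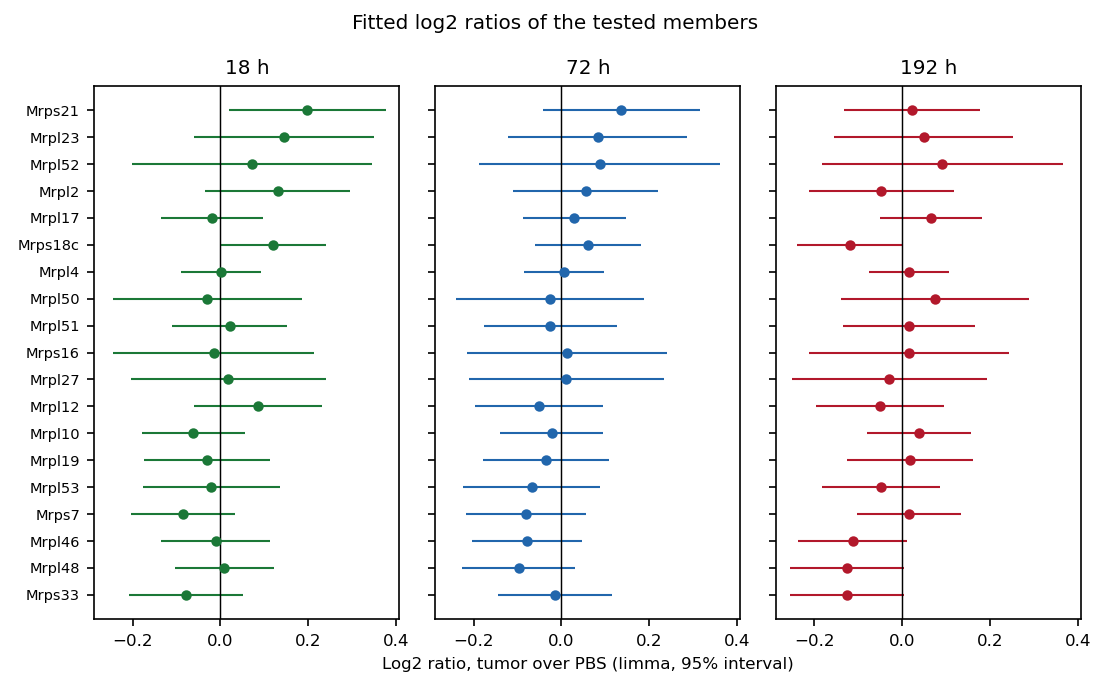
Fitted log2 ratio of tumor over PBS (horizontal axis) for the 19 tested members (vertical axis, ordered by the mean of the times), with a panel for each time. Points are limma estimates and bars 95% intervals; 18 of 19 intervals include 0 at 18 h (all but that of Mrps21), and all 19 do at 72 and at 192 h.

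Averaged over the 3 times, the list had a median of 0.0036, beside -0.01 over all tested probes, and 10 of 19 members lay above 0. No probe passed (0%). Mrps21 and Mrpl48 had an unadjusted p under 0.05, beside 128 of all probes (9.4%), so the members' share of 2 in 19 was near the background. The highest means were those of Mrps21 (0.12), Mrpl23 (0.09), Mrpl52 (0.08), Mrpl2 (0.05), Mrpl17 (0.03) and Mrps18c (0.02). The lowest were those of Mrps33 (-0.07), Mrpl48 (-0.07), Mrpl46 (-0.07), Mrps7 (-0.05), Mrpl53 (-0.05) and Mrpl19 (-0.02).

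The width of the intervals sets what these arrays could have shown. The 95% intervals of the 19 members lay between -0.24 and 0.38 at 18 h, between -0.24 and 0.36 at 72 h and between -0.26 and 0.36 at 192 h. For the mean of the times they lay between -0.15 and 0.24. These bounds hold on the scale of the deposited table. The median standard error (SE) of a member was 0.0637, 0.0671 and 0.0637 at 18, 72 and 192 h, beside 0.0685, 0.0697 and 0.0685 over all tested probes.

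Differences between the times were also tested. For 72 h minus 18 h the median over the members was -0.01, no probe passed (0%), and 0 members beside 23 probes (1.69%) had an unadjusted p under 0.05. The largest positive differences were those of Mrps33 (0.06), Mrpl17 (0.05), Mrpl10 (0.04), Mrps16 (0.03), Mrpl52 (0.02) and Mrpl4 (0.0060). The most negative were those of Mrpl12 (-0.14), Mrpl48 (-0.11), Mrpl2 (-0.08), Mrpl46 (-0.07), Mrpl23 (-0.06) and Mrps21 (-0.06). For 192 h minus 18 h the median was -0.03, no probe passed (0%), and 1 member, Mrps18c, beside 56 probes (4.11%) had an unadjusted p under 0.05. Mrpl50 (0.10), Mrps7 (0.10), Mrpl10 (0.10), Mrpl17 (0.09), Mrpl19 (0.05) and Mrps16 (0.03) had the most positive differences. Mrps18c (-0.24), Mrpl2 (-0.18), Mrps21 (-0.18), Mrpl12 (-0.14), Mrpl48 (-0.13) and Mrpl46 (-0.10) had the most negative. Without pair 1 at 192 h the median difference was -0.10.

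For 192 h minus 72 h the median over the members was 0.0028, or -0.06 without pair 1 at 192 h. No probe passed (0%), and Mrps18c alone among the members had an unadjusted p under 0.05, beside 48 probes (3.52%). The most positive differences were those of Mrpl50 (0.10), Mrps7 (0.10), Mrpl10 (0.06), Mrpl19 (0.05), Mrpl51 (0.04) and Mrpl17 (0.04). The most negative were those of Mrps18c (-0.18), Mrps21 (-0.11), Mrps33 (-0.11), Mrpl2 (-0.10), Mrpl27 (-0.04) and Mrpl46 (-0.03).

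The small subunit decodes the messenger RNA, and its tested members were Mrps7, Mrps16, Mrps18c, Mrps21 and Mrps33. Mrps7 belongs to the head of the subunit, Mrps16, Mrps18c and Mrps21 have bacterial counterparts in the body and platform, and Mrps33 has none in bacteria. Their median ratio was -0.02 at 18 h, 0.01 at 72 h and 0.01 at 192 h. Taking each tested Mrps member's smallest p at any of the 3 times or for their mean, Mrps21, Mrps18c and Mrps33 had the smallest, so their promoters are shown, taken from RefSeq on GRCm38.p6. Each line runs 5′ to 3′ along the gene's strand from 170 bases before the annotated transcript start to 50 bases after it. Capitals mark CTTCCGG, which is the motif CCGGAAG read on the other strand. This is the core bound by ETS factors, the family of the nuclear respiratory factor GABP, known as a regulator of many genes for mitochondrial proteins. The Mrps21 window is chr3:95871465-95871684 on the minus strand, that of Mrps18c chr5:100798589-100798808 on the plus strand, and that of Mrps33 chr6:39810887-39811106 on the minus strand.
Mrps21: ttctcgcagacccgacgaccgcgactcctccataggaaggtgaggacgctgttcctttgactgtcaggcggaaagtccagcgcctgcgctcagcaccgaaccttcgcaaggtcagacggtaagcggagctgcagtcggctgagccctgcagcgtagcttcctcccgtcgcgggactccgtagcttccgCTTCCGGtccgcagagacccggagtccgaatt
Mrps18c: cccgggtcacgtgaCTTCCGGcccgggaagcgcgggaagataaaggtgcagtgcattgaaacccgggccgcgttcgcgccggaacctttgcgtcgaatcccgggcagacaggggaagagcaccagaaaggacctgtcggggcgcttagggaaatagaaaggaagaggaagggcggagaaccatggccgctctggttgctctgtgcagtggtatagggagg
Mrps33: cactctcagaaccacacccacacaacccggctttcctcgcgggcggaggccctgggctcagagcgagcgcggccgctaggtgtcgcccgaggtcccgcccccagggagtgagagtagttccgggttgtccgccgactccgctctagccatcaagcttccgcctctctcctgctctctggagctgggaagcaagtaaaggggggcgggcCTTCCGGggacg
The motif begins at base 19 after the start in Mrps21, at base -156 before it in Mrps18c and at base 39 after it in Mrps33. The table held promoters, from 250 bases before to 50 bases after a start, for 46 of the 52 members, and Mrpl48, with 4 listed starts, is not printed. CCGGAAG on either strand was present in 18 of the 52 promoter windows of these members (18 of 46 genes), beside 8.86% of all 32851 windows. The GC box GGGCGG was in 30 of the 52, beside 35.7%. A match describes the letters in a window and is not a measured binding site.

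Mrps21 had log2 ratios of 0.08, 0.39 and 0.13 in pairs 1, 3 and 4 at 18 h. At 72 h it had 0.20, 0.25 and -0.04 in pairs 1, 2 and 4, and at 192 h it had 0.19, 0.03, -0.02 and -0.11 over the 4 pairs. All 3 pairs at 18 h lay above 0, and the values at the later times lay on both sides of 0. The fitted ratio at 18 h was 0.20 ± 0.08 (SE, n = 3 pairs; limma adjusted p = 0.626). An exact sign-flip permutation test over the 3 pairs gave a two-sided p = 0.25, the smallest that 3 pairs allow. Averaged over the times it was 0.12 ± 0.04 (SE, n = 10 pairs; exact sign-flip permutation p = 0.0410, limma adjusted p = 0.504), above 0 in 7 of 10 pairs. The single-gene exact p-values here belong to members picked for their small p. Pair 3 carried much of the 18 h value, which was 0.10 without it. With normexp on the scans the ratio was 0.02 at 18 h and 0.02 for the mean of the times. Read by orientation, Mrps21 was above 0 on all 11 arrays with the tumor RNA in Cy5 and on 7 of 11 with the tumor RNA in Cy3.

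Mrps18c is 1 of 3 paralogs of a bacterial small subunit protein. Its ratios were 0.14, 0.17 and 0.05 in pairs 1, 3 and 4 at 18 h and 0.11, 0.08 and -0.02 in pairs 1, 2 and 4 at 72 h. At 192 h they were -0.14, -0.03 and -0.19 in pairs 2, 3 and 4. Every 192 h value lay below every 18 h value, as for 3.23% of all tested probes. On the scans the times overlapped, with 0.31 in pair 3 at 192 h and 0.16, 0.19 and 0.29 at 18 h. The fitted difference of 192 h minus 18 h was -0.24 ± 0.08 (SE; limma adjusted p = 1.00), and that of 192 h minus 72 h was -0.18 ± 0.08 (SE; limma adjusted p = 1.00). Exact permutation of the pairs between the times gave a two-sided p = 0.10 for each difference, the smallest that 3 pairs against 3 allow. At 192 h, Mrps18c had a single orientation in pair 1, at 0.14. The paralogs Mrps18a, which sits in the large subunit, and Mrps18b were not tested. Mrps18a had pair means of 0.08 and 0.16 at 18 h and 0.04, -0.21 and -0.04 at 72 h. For Mrps18b they were -0.19 and 0.05 at 18 h, 0.0033, -0.10 and -0.0041 at 72 h, and -0.12, -0.03 and 0.04 at 192 h. At 18 h the measured pairs of Mrps18c and Mrps18a lay above 0, and the pair values of Mrps18b lay on both sides.

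Mrps33 lay below 0 in 8 of its 9 pairs, and 3.82% of all tested probes had at most 1 pair not below 0. On the scans it was below 0 in 5 of 10 pairs. Its ratios were -0.01, -0.03 and -0.20 at 18 h, -0.06, -0.04 and 0.05 at 72 h, and -0.19, -0.02 and -0.16 at 192 h. Its mean of the times was -0.07 ± 0.03 (SE, n = 9 pairs; exact sign-flip permutation p = 0.0352, limma adjusted p = 0.513). The 3 times overlapped.

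Mrpl48, a large subunit protein with no bacterial counterpart, had 18 h ratios of -0.12, 0.07, 0.05 and 0.03. At 72 h it had -0.13, -0.08 and -0.08 in pairs 1, 2 and 4, and at 192 h 0.02, -0.18 and -0.22 in pairs 1, 2 and 4. All 72 h values were negative, and the other times lay on both sides of 0. The mean of the times was -0.07 ± 0.03 (SE, n = 10 pairs; exact sign-flip permutation p = 0.0645, limma adjusted p = 0.513), below 0 in 6 of 10 pairs. It differed between dye orientations, lying above 0 on 8 of 11 arrays with the tumor RNA in Cy5 and below 0 on 10 of 11 with the tumor RNA in Cy3. With ratios computed from the scans by loess, its mean of the times was 0.0052, with the opposite sign.

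**Figure D3:**
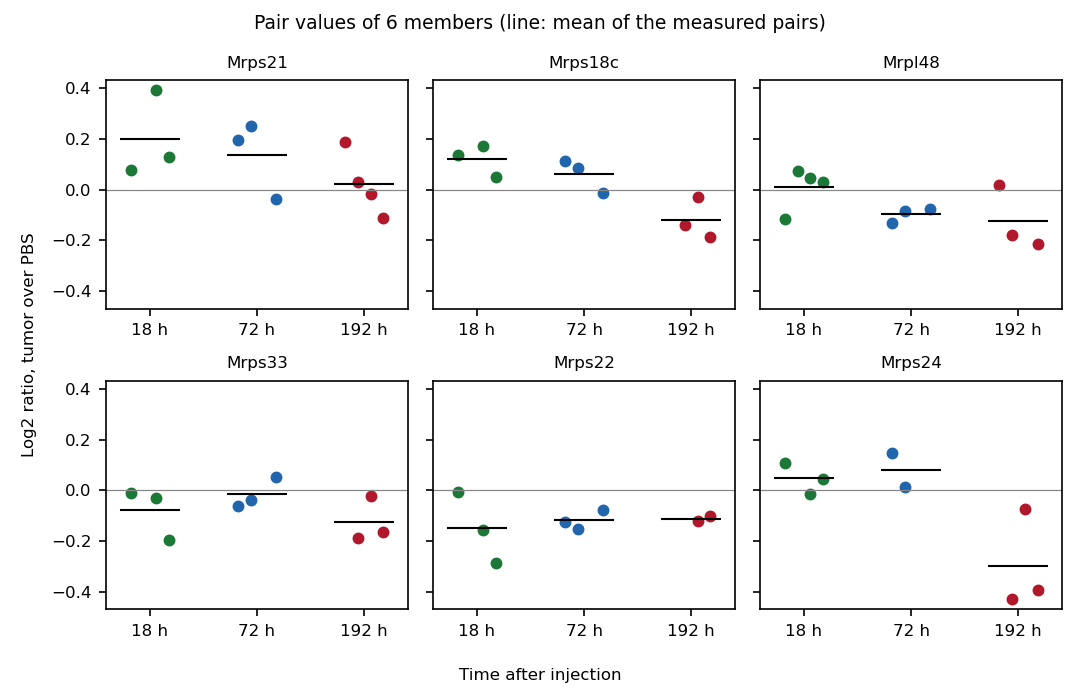
Log2 ratio of tumor over PBS (vertical axis) in each measured pair at 18, 72 and 192 h (horizontal axis) for 6 members; points are pairs in their number order and black lines the means. All 8 points of Mrps22 lie below 0, and the 192 h points of Mrps18c lie below its 18 h points (3.23% of all tested probes do so).

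In the large subunit, where peptide bonds are formed, 8 tested members have bacterial counterparts. Mrpl2 lies near the catalytic centre, Mrpl4, Mrpl17 and Mrpl23 at the tunnel through which the new chain leaves, and Mrpl10 and Mrpl12 form the stalk that recruits translation factors. Mrpl12 is also known to bind the mitochondrial RNA polymerase. Mrpl2 had 0.28, -0.04, 0.13 and 0.14 at 18 h, 0.07, 0.16, 0.09 and -0.10 at 72 h, and 0.26, -0.26, -0.02 and -0.17 at 192 h. At each time its values lay on both sides of 0. Mrpl23 had 0.06, -0.05, 0.41 and 0.16 at 18 h, 0.15, 0.22, 0.04 and -0.08 at 72 h, and 0.42, -0.04, 0.05 and -0.24 at 192 h. Its 192 h values thus spanned more than those at 72 h.

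Mrpl12 had 0.08, -0.05, 0.21 and 0.10 at 18 h, -0.08, -0.09, 0.10 and -0.14 at 72 h, and 0.13, -0.31, -0.05 and 0.02 at 192 h. Mrpl17 had -0.03, -0.05, 0.06 and -0.06 at 18 h, 0.09, 0.14, 0.02 and -0.13 at 72 h, and 0.22, 0.08, 0.03 and -0.06 at 192 h. For both genes each time held values on both sides of 0. Mrpl4 was the steadiest of the tested members, with a standard deviation of 0.0576 over its 12 pairs and a range of -0.09 to 0.12. Mrpl10 had -0.09, -0.10 and 0.0027 at 18 h, -0.09, -0.06 and 0.09 at 72 h, and 0.0073, 0.07 and 0.04 at 192 h. Every 192 h value of Mrpl10 lay above every 18 h value, the reverse of Mrps18c. The share of all tested probes that did so is not given here. On the scans its times overlapped, with -0.02 in pair 2 at 192 h and 0.22 in pair 4 at 18 h.

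Among the large subunit members without bacterial counterparts, Mrpl52 varied most. Its ratios were 0.0052, -0.17, 0.41 and 0.04 at 18 h, 0.22, 0.28, -0.02 and -0.14 at 72 h, and 0.64, -0.13, 0.09 and -0.23 at 192 h. With a standard deviation of 0.261 over 12 pairs it was the most variable tested member, beside medians of 0.109 for the members and 0.128 for all tested probes. Mrpl46 had -0.08, 0.02 and 0.02 at 18 h, -0.16, -0.10 and 0.02 at 72 h, and -0.12, -0.18 and -0.04 at 192 h. Mrpl50, Mrpl51 and Mrpl53 had fitted ratios of -0.07 to 0.07 at the 3 times. The 7 tested members without a bacterial counterpart had medians of -0.01, -0.03 and -0.05 at 18, 72 and 192 h, with 3, 1 and 3 of 7 above 0. The 12 with one had medians of 0.0094, 0.01 and 0.01, with 7, 8 and 8 of 12 above 0. Of all tested probes, 42.8%, 41.9% and 45.3% lay above 0 at these times. The difference between these classes was not tested.

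**Figure D4:**
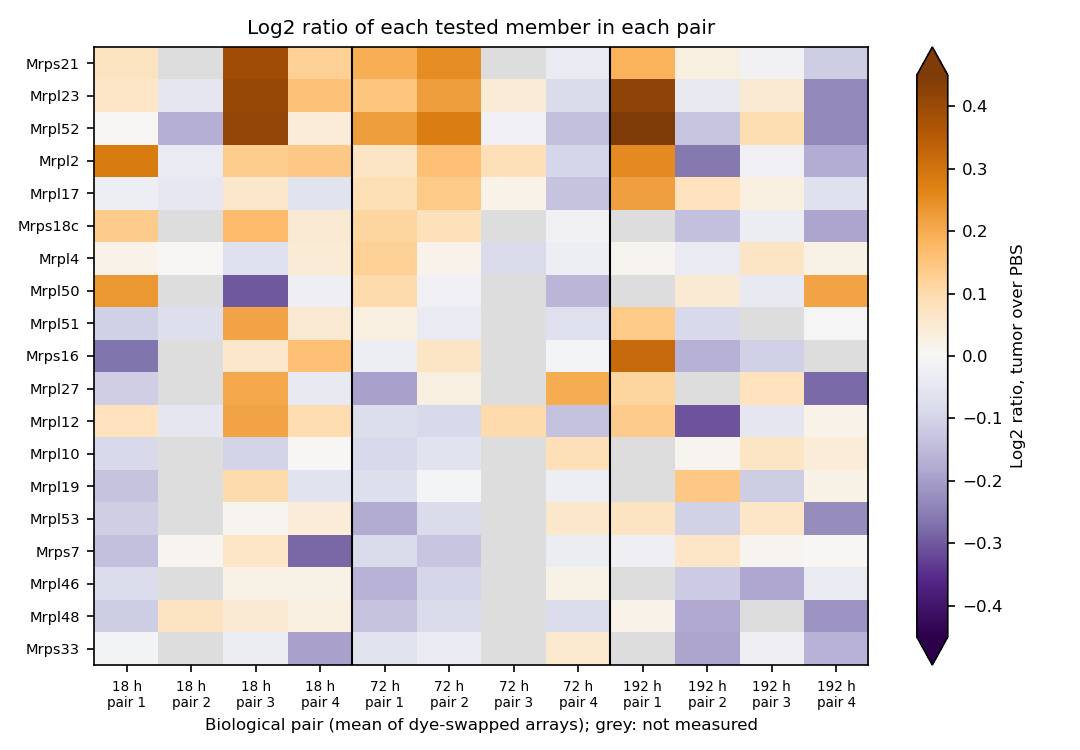
Log2 ratio of tumor over PBS (colour; the colour scale ends at -0.45 and 0.45) for the 19 tested members (vertical axis, ordered by the mean of the times) in the 12 pairs (horizontal axis); grey cells had no value in both orientations. Pair 3 at 18 h and pair 1 at 192 h hold mostly positive values, 15 of 19 and 12 of 13. Of all tested probes, 50.2% and 44.5% lay above 0 in these pairs.

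The pairs of a time differed among themselves. In the pairs at 18 h the medians of the tested members were -0.03, -0.05, 0.06 and 0.04. At 72 h the medians of the 4 pairs were -0.03, -0.0083, 0.03 and -0.03, and at 192 h they were 0.14, -0.10, -0.02 and -0.09. Each time thus held pairs on both sides of 0. Pair 1 at 192 h had 12 of 13 members above 0, and in the other 3 pairs of that time 6 of 18, 8 of 17 and 6 of 18 members were above 0. Of all tested probes, 44.5% lay above 0 in pair 1 and 43.3%, 44.5% and 51.7% in the other 3. In pair 1 the tested cytosolic ribosomal protein genes had a median of 0.30 and the oxidative phosphorylation subunits 0.07. Over the 12 pairs, the 6 members measured in all of them correlated with each other at a median Pearson's r of 0.484, with a range of -0.151 to 0.953 (Mrpl23 with Mrpl52). The median over the 270 probes measured in all 12 pairs was 0.0429. The points share their arrays, and each gene is measured against the same PBS liver within a pair, so these are descriptions.

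By the same measure, the genes outside the list whose pair values were most like the median of the tested members were Ndufb11 (r = 0.938), Usp19 (0.926), Khdrbs3 (0.924), Ndufb8 (0.922), Fgf22 (0.920), Timm13 (0.897), Rpl11 (0.896), Phb2 (0.882), Usp54 (0.882) and Sp4 (0.876). They were the highest of 264 probes over 12 pairs. Ndufb11 and Ndufb8 are subunits of respiratory complex I, Timm13 is a chaperone of mitochondrial import, Phb2 a prohibitin of the inner membrane and Rpl11 a cytosolic ribosomal protein. Usp19, Khdrbs3, Fgf22, Usp54 and Sp4 are on none of the lists of related genes given below.

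**Figure D5:**
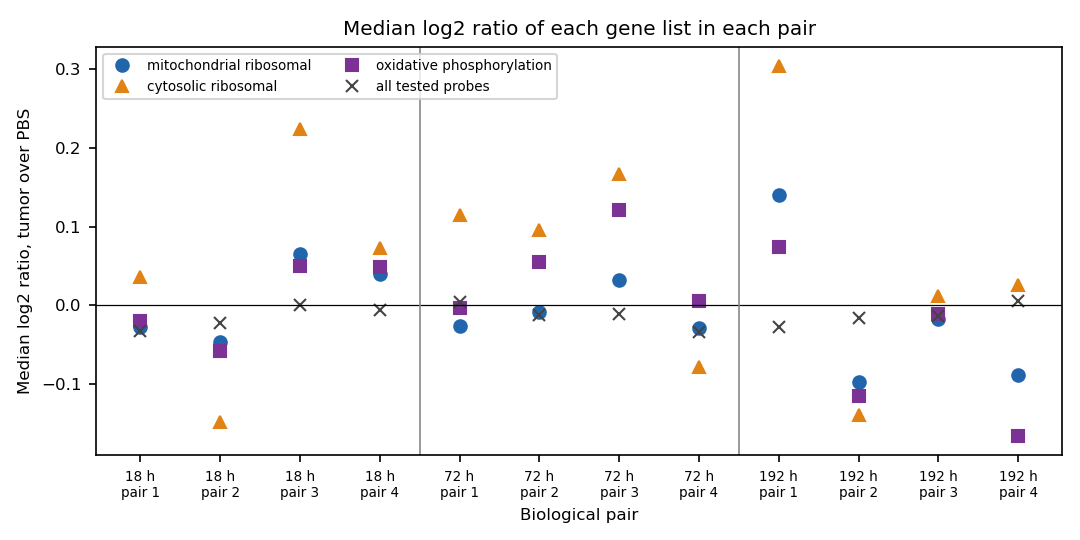
Median log2 ratio of tumor over PBS (vertical axis) in each of the 12 pairs (horizontal axis) for 4 sets of tested probes, marked by symbol. The median of the mitochondrial ribosomal list is on the same side of 0 as that of the oxidative phosphorylation list in 10 of 12 pairs.

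The lists of related genes give the setting. The 20 tested cytosolic ribosomal protein genes had medians of 0.07, 0.10 and 0.06 at 18, 72 and 192 h, and none passed the test. Above 0 lay 18 of 20, 19 of 20 and 14 of 20 at these times. The 38 tested oxidative phosphorylation subunits had medians of 0.02, 0.03 and -0.04, and none passed. Of these 38 genes, 21 lay above 0 at 18 h, 23 at 72 h and 4 at 192 h, where 34 lay below. The share of all tested probes above 0 was 42.8%, 41.9% and 45.3% at the 3 times. Within pairs, the median of the mitochondrial ribosomal genes lay on the same side of 0 as that of the oxidative phosphorylation genes in 10 of 12 pairs, and as that of the cytosolic ribosomal genes in 7 of 12. It lay on the same side as the median of all tested probes in 7 of 12.

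Genes that work with the mitochondrial ribosome were mostly out of reach. Of 13 listed translation factors 5 were on the array and 0 were tested, and of 9 listed regulators of mitochondrial biogenesis 4 were on the array and 0 were tested. A single mitochondrial aminoacyl-tRNA synthetase was tested, Sars2, with ratios of 0.05, -0.07 and -0.03 at 18, 72 and 192 h. The 3 tested genes for assembly and rRNA modification, Dhx30, Mrm1 and Mrm2, had a median of -0.08, -0.00028 and -0.01 at these times, and the 3 for mitochondrial DNA maintenance and transcription, Polg, Tfam and Slirp, had -0.03, -0.04 and -0.0030. None of these 7 genes had an unadjusted p under 0.05 in any comparison. Among 7 tested import genes, Timm23 (mean of the times -0.10; limma adjusted p = 0.504) and Tomm20 (-0.08; limma adjusted p = 0.513), components of the inner and outer membrane translocases, had an unadjusted p under 0.05, where 9.4% of all probes did. Of the 7, 4 had a mean above 0 and 3 below. Of 7 tested mitochondrial chaperones and proteases, 0 passed the adjusted test in any comparison.

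Members short of 3 pairs at some other time could still be read at the times when they were measured. Fitted at each time alone, 38 members at 18 h had a median of 0.0048, 40 members at 72 h a median of -0.01 and 22 members at 192 h a median of -0.0075. No probe of 2862, 3390 and 2030 passed at these times (0%), and the smallest limma adjusted p among the members was 0.543. At an unadjusted p under 0.05 there were 2 members at 18 h (all probes 8.74%), 1 at 72 h (5.31%) and 1 at 192 h (0.985%). The fit was added after the data had been seen. For each of these 4 members an exact sign-flip permutation test over its 3 pairs gave p = 0.25, the smallest possible.

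Of the members found in this way, Mrpl15 had ratios of -0.07, -0.23 and -0.13 in pairs 1, 3 and 4 at 18 h, all below 0 (-0.14 ± 0.05, SE, n = 3; limma adjusted p = 0.543). Its other values were -0.02 and -0.05 at 72 h and -0.03 and -0.01 at 192 h. It lay below 0 on 7 of 7 arrays with the tumor RNA in Cy5 and above 0 on 9 of 10 with the tumor RNA in Cy3. Mrps22, a small subunit protein without a bacterial counterpart whose human gene is mutated in an inherited mitochondrial disease, had -0.13, -0.15 and -0.08 at 72 h (-0.12 ± 0.05, SE, n = 3; limma adjusted p = 0.765). Its other values were -0.0068, -0.16 and -0.29 at 18 h and -0.12 and -0.10 at 192 h. It was thus below 0 in all 8 pairs where it was measured. Of the 35 members with at least 7 pairs, Mrps22 and Mrpl15 were below 0 in every pair and Mrpl28 was above 0 in every pair, beside 0.651% below and 0.521% above of 3071 probes with as many pairs. This count and its minimum of 7 pairs were chosen after the values were seen. On the scans, Mrps22 was below 0 in 5 of 8 pairs.

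Mrps24, the counterpart of a bacterial protein at the entry of the messenger RNA channel, had -0.43, -0.07 and -0.39 in pairs 2, 3 and 4 at 192 h (-0.30 ± 0.09, SE, n = 3; limma adjusted p = 0.999). At 18 h it had 0.11, -0.01 and 0.04 and at 72 h 0.15 and 0.01, so 2 of its 192 h values lay below all others. In pair 1 at 192 h it had a value in a single orientation, at 0.51. On the scans that pair had both orientations at 1.45, and the fitted scan ratio at 192 h was 0.07 with it.

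Other untested members went either way or lay on both sides of 0. Mrpl28 had 0.03, 0.29 and 0.09 at 18 h, 0.07, 0.26 and 0.07 at 72 h and 0.08 in its single pair at 192 h, all above 0. On the scans it was above 0 in 6 of 8 pairs. Mrpl55 had 0.11 and 0.25 at 18 h and 0.0049 and 0.06 at 72 h, again all above 0. Mrpl9 had the lowest value of any member, -0.53 in pair 3 at 18 h, and -0.23, -0.51 and 0.10 at 72 h. Mrpl42, at 0.50 in pair 1 at 192 h, had -0.11 to 0.24 in its 6 other pairs. Mrpl58, a peptidyl-tRNA hydrolase built into the large subunit, had 0.35 in its single pair at 18 h and -0.0024, -0.19 and -0.06 at 72 h. Mrps36, whose product is now assigned to the oxoglutarate dehydrogenase complex rather than to the ribosome, had 0.13 and 0.02 at 18 h, -0.02, 0.08 and -0.04 at 72 h, and -0.06 at 192 h. Mrps12, at the decoding site, had -0.19, -0.0014 and -0.05 at 18 h, 0.05, 0.10 and -0.06 at 72 h, and 0.22 in its single pair at 192 h.

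Ratios computed from the scans gave 0 calls as well. With loess normalization 24 members were tested among 2062 probes, their medians were -5.4e-05, 0.01 and -0.01 at 18, 72 and 192 h, and 0 probes passed. At an unadjusted p under 0.05 there were 1, 0 and 2 of the 24 members, beside 136, 104 and 63 of the 2062 probes. The members were Mrps7 at 18 h (-0.31; limma adjusted p = 0.751), and Mrpl11 (-0.30) and Mrpl32 (-0.36) at 192 h (limma adjusted p = 0.999 for each). The range of members on this scale was wider, -0.31 to 0.28 at 18 h, -0.20 to 0.18 at 72 h and -0.36 to 0.17 at 192 h. Of the 19 members tested in both, 14 had the same sign at 18 h, 13 at 72 h and 15 at 192 h. On the scans Mrps21 at 18 h had -0.29, 0.42 and 0.36 in pairs 1, 3 and 4, so pair 1 lay on the other side of 0.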

How the data were processed

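Liver RNA of 12 tumor and PBS pairs was measured on 24 two-colour arrays printed in house, per the labels. The deposited log2 ratios are the authors' value table, whose scale and direction are unstated, and its log base was taken as log2. Per the file headers, the deposited scan tables (3 scans per array) hold spot intensity corrected for background, with backgrounds, flags and a saturation factor that is a fraction. The image software is not given in the sources used here. Probe numbers were tied to spots by block order, and symbols came from the platform annotation, updated by Entrez identifier for all 52 members.

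Dye-swapped arrays were averaged and counted as 1 replicate, with both needed. limma 3.58.1 (lmFit and eBayes, R 4.3.3) was fitted over all 12 pairs with a coefficient per time, on probes with at least 3 pairs at each time, and p-values were two-sided with Benjamini-Hochberg adjustment over 1362 probes at 0.05. An SE is that of this fit. With at most 4 pairs per time, limma's unadjusted p-values were used only to count and choose genes and are not printed, although the plan was to print them. Exact permutation tests over pairs, added later, stand in their place for the members and for Marco. The fit was tested on simulated data. Alternatives covered scan ratios with loess (span 0.3) or normexp (offset 50), centring, filters, a dye term, blocks and each pair left out. No unassigned columns were present. The precision is limited by the number of pairs.

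Members and lists were chosen with earlier results of these data known. All measured members could be named, with the 6 highest and 6 lowest per comparison, those with an unadjusted p under 0.05, up to 4 such genes of each other list, and the 10 probes most correlated with the members' median. Promoters came from RefSeq.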

Additional observations from a re-analysis of the deposited data

Results flagged for a closer look

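None of the 27 sets of 4 pairs (a tested member at a time with all 4 pairs) held a value far enough from the other 3 to pass Dixon's test at the 95% level. Over all tested probes, 95 of 1813 such sets did (5.24%), and chance alone gives about 1 in 20.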

How the results depend on the processing

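Members called by limma numbered 0 under every alternative run. The median of the members moved to -0.0924 at 18 h and to -0.0664 for the mean of the times with normexp, and to 0.0148 at 72 h with loess on the scans. Each of these lay outside the range, given below, from leaving out each pair in turn. So did the median for 192 h minus 18 h, at -0.138 from pairs 3 and 4 alone and 0.0857 from pairs 1 and 2 alone. The cause was not tested. Mrpl48 turned sign for the mean of the times with loess on the scans (0.00516), and Mrps18c for 192 h minus 72 h with normexp (0.0150). With no filter on missing pairs, on 4625 probes, 1 probe passed at 72 h, 2 at 192 h, 3 for the mean of the times, 2 for 192 h minus 18 h and 3 for 192 h minus 72 h. With the replicate number as a block, 1 probe passed for the mean of the times, and the same count came from a block that sets pairs 1 and 2 against pairs 3 and 4. No pairing of samples by replicate number was seen. Same-numbered pairs of different times correlated at -0.318 to 0.492 (median 0.0534) and others at -0.554 to 0.510 (median 0.0236). Such overlapping ranges cannot exclude a pairing. Leaving out each pair in turn gave 0 to 1 probes for the mean of the times (1 without 72 h pair 4) and 0 in the other 6 comparisons. It moved the members' median over -0.0358 to 0.0503 at 18 h, -0.0152 to 0.00813 at 72 h, -0.0890 to 0.0218 at 192 h and -0.0164 to 0.0133 for the mean of the times. For 72 h minus 18 h the range was -0.0552 to 0.0209, for 192 h minus 18 h -0.101 to 0.0116 and for 192 h minus 72 h -0.0628 to 0.0295. Over all alternatives, limma gave 39 to 287 probes at an unadjusted p under 0.05 at 18 h, 18 to 315 at 72 h and 17 to 194 at 192 h. Members at that p numbered 0 to 4, 0 to 1 and 0 to 8 at these times. For the mean of the times there were 0 to 7 members, beside 33 to 390 probes. The alternatives tested different numbers of probes and members, so these ranges give no shares. Every spot of the value table was measured on the scans, so restricting to such spots changed nothing. Low signal over background and the 192 h coverage limit what can be read.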
